A study of Mus musculus with 2 samples.

Results

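The voltage-gated calcium channel subunits described here are 9 genes, taken by their symbols from the 17646 genes listed in 2 gene tables. They are the L-type pore genes Cacna1c and Cacna1d, the T-type pore genes Cacna1g and Cacna1h, the beta subunit genes Cacnb1, Cacnb2 and Cacnb3, and the alpha2-delta subunit genes Cacna2d1 and Cacna2d2. RNA was sequenced from hearts of mouse embryos at embryonic day 13.5, with 1 library from SRSF10-/- embryos (the Srsf10 knockout, KO) and 1 from wild-type (WT) embryos, both with a BALB/c strain background. Srsf10 is a gene for an SR-type regulator of splicing. How the deletion was made, and the number and sex of the embryos behind each library, are not given in the labels, and the deletion is not described there as limited to the heart. All 9 genes were found in both tables, with an RPKM above 1 in each. In the GRCm38 annotation Cacna1c lies on chromosome 6, Cacna1d on 14, Cacna1g and Cacnb1 on 11, Cacna1h on 17, Cacnb2 on 2, Cacnb3 on 15, Cacna2d1 on 5 and Cacna2d2 on 9.

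Voltage-gated calcium channels open when the membrane depolarises and let calcium into the cell. The pore subunit forms the channel: L-type pores carry the long-lasting current that starts contraction in heart muscle, and T-type pores open at more negative voltages and contribute to pacemaking and to calcium entry in the embryonic heart. Beta subunits bind the L-type pore inside the cell and help it reach the membrane and gate, and alpha2-delta subunits sit on the outer face and raise the number of channels at the surface. T-type pores can work without either helper.

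The libraries held 38.89 M uniquely mapped reads in KO hearts and 39.61 M in WT hearts. Srsf10 had 212 reads in the KO library and 5245 in the WT library, in keeping with the genotype labels. The heart label fits the 11 cardiomyocyte marker genes, all found in both libraries, which summed to 17640 RPKM in KO hearts and 18912 RPKM in WT hearts. RPKM is reads per kilobase of the gene length listed in the table and per M mapped reads. The Y-linked genes Ddx3y, Eif2s3y, Kdm5d and Uty together had 7 reads in KO hearts and 2943 in WT hearts, so genotype and sex of the tissue cannot be told apart in any comparison below. With 1 library per genotype no difference was tested, and higher and lower refer to these 2 libraries. Intervals are exact 95% intervals that cover counting error only, since each genotype has 1 library. They treat each read as independent, although reads that carry no molecular tag cannot be counted as separate molecules.

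Reads were counted where they mapped to 1 place, so subunits of a class can be told apart only where their sequences differ. To show how near they come, the most alike 60-base stretch of coding sequence within each pair of subunits set against each other is given below, from the longest coding transcript of GENCODE M21 (GRCm38), 5′ to 3′, with the bases that differ in capitals. The L-type pores differ at 2 of 60 bases there, the T-type pores at 1, the beta subunits Cacnb2 and Cacnb3 at 8 and the alpha2-delta subunits at 10.
Cacna1c: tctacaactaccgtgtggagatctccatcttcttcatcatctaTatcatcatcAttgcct
Cacna1d: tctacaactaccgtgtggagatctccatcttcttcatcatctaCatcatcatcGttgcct
Cacna1h: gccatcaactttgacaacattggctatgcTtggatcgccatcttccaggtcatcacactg
Cacna1g: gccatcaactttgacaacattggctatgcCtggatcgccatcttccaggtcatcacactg
Cacnb2: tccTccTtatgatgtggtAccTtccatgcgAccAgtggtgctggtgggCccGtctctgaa
Cacnb3: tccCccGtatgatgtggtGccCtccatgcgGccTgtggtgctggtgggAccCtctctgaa
Cacna2d2: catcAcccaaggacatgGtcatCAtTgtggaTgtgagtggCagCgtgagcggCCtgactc
Cacna2d1: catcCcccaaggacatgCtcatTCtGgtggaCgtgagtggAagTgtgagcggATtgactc
The longest identical run was 43 bases in the L-type pair, 41 in the T-type pair, 20 in the beta pair and 14 in the alpha2-delta pair. Likeness this close was rare over whole transcripts. The share of 31-base words of the longest transcript that occur in any other gene's transcripts ran from 0% for Cacnb1, Cacnb3 and Cacna2d1 to 2.34% for Cacna1h. By exact matches, then, each of the 9 transcripts was almost wholly sequence of its own. Near matches and the rest of the genome were not checked, so how the reads themselves were placed was not tested. Other genes are annotated over the exons of 5 of the 9, in each case on the opposite strand, and the use of strand in counting is not given in the sources used here. The share of exonic bases that they cover was highest for Cacnb2, at 7.32%, and for Cacna1d, at 4.67%. Chdh, the gene annotated over Cacna1d, had 25 reads in KO hearts and 53 in WT hearts, small numbers beside the reads of Cacna1d itself, 1078 in KO hearts and 1466 in WT hearts.

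Per listed length, the 9 transcripts ran from 3.03 to 27.0 RPKM in KO hearts and from 3.90 to 21.2 RPKM in WT hearts, and the same 4 genes led in both libraries. In the knockout heart the order was Cacna1h (27.0 RPKM), Cacna2d2 (24.5), Cacnb2 (20.9), Cacna1c (19.8), Cacna2d1 (11.3), Cacnb3 (7.75), Cacna1g (5.27), Cacnb1 (3.38) and Cacna1d (3.03). In the wild-type heart it was Cacna1h (21.2 RPKM), Cacna2d2 (20.6), Cacna1c (18.2), Cacnb2 (15.6), Cacnb3 (12.3), Cacna2d1 (10.4), Cacna1g (5.16), Cacna1d (4.04) and Cacnb1 (3.90). Cacna1h, a T-type pore gene, stood first of the 9 in both, and Cacna1d and Cacnb1 stood last. Cacna1h and Cacna2d2 also led with both annotated lengths, while the genes behind them changed places with the length used. Neighbours in the order were apart beyond counting error, with 3 exceptions. Cacnb1 over Cacna1d was 1.12 (0.9993 to 1.2499) in KO hearts, and in WT hearts, where their order is turned, Cacna1d over Cacnb1 was 1.04 (0.938 to 1.15). Cacna1h over Cacna2d2 was 1.03 (0.992 to 1.07) in WT hearts. Cacna1h lay above 86.4% of the genes listed in KO hearts and above 81.6% of those listed in WT hearts. Cacna1d lay above 40.2% of them in the knockout and above 44.8% in the wild type, below the middle of all listed genes.

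**Figure D1:**
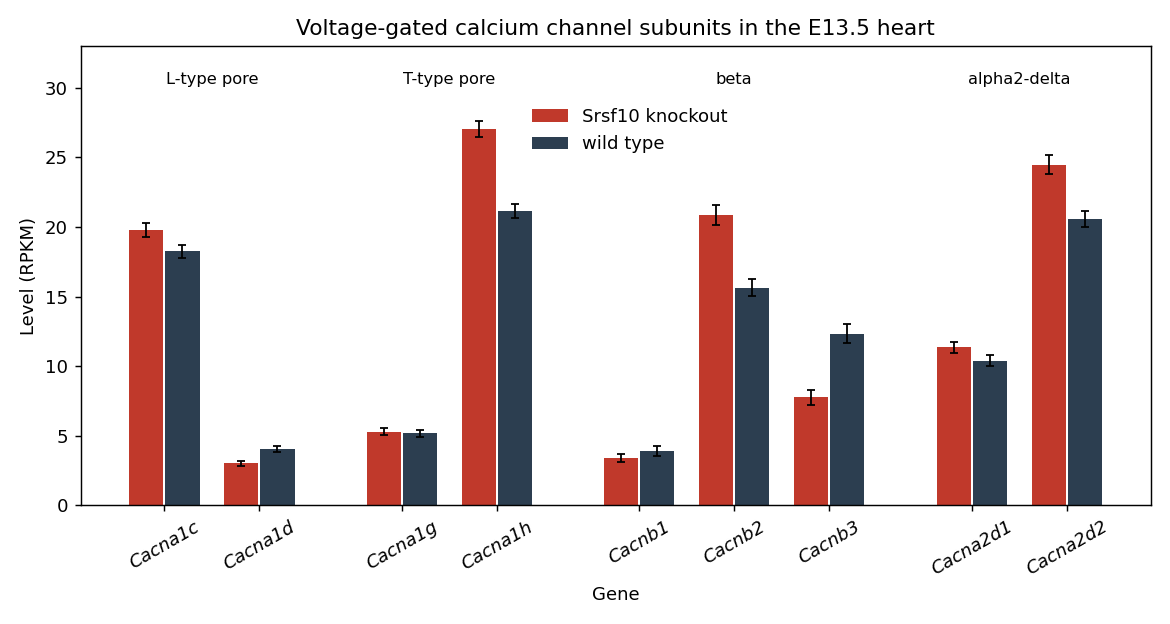
Level of each subunit gene in RPKM (vertical axis) in the Srsf10 knockout library (red, left bar) and the wild-type library (dark, right bar), grouped by class, with 1 library per bar and exact 95% Poisson intervals for counting error. Cacna1h, Cacna2d2, Cacnb2 and Cacna1c stand highest in both libraries, and Cacnb3 shows the widest gap in favour of the wild type, at 7.75 RPKM in KO hearts and 12.3 RPKM in WT hearts.

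Cacna1c, which encodes the L-type pore Cav1.2 of working heart muscle, was the leading L-type gene. It had 5821 reads (19.8 RPKM) in the KO library and 5476 reads (18.2 RPKM) in the WT library, a ratio of 1.08 (1.04 to 1.12). Cacna1d, which encodes Cav1.3, an L-type pore known from the sinus node and the atria, had 1078 reads (3.03 RPKM) in KO hearts and 1466 reads (4.04 RPKM) in WT hearts. Its ratio of 0.749 (0.692 to 0.811) ran against that of Cacna1c, at 1.34-fold lower in KO hearts. Cacna1c thus made up 86.7% of the L-type RPKM in the KO heart and 81.9% in the WT heart. Per length, Cacna1c exceeded Cacna1d 6.53-fold (6.12 to 6.97) in KO hearts and 4.52-fold (4.26 to 4.79) in WT hearts, a relative ratio, KO over WT, of 1.45 (1.32 to 1.58). The folds within a library, and the shares with them, depend on the length used: with summed exons Cacna1c exceeded Cacna1d 3.22-fold in KO hearts and 2.22-fold in WT hearts. The sum of both genes hardly differed, at 22.8 RPKM in KO hearts and 22.3 RPKM in WT hearts.

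Cav1.3 is a known pacemaker channel of the sinus node. The 5 sinus node markers (Hcn4, Shox2, Tbx3, Tbx18 and Isl1) summed to 30.9 RPKM in KO hearts and 36.9 RPKM in WT hearts, and none was at 0. They did not move together. Intervals lay below 1 for 3 of them, beside 31.6% of all genes that reached an RPKM of 1 in either library. Shox2, a transcription factor of the sinus node, had 407 reads in KO hearts and 954 in WT hearts. Hcn4, the main pacemaker channel gene, had 842 in KO hearts and 971 in WT hearts. Tbx3, a transcription factor of the conduction system, had 598 in KO hearts and 726 in WT hearts. By log2 ratio of RPKM + 1, 0.32% of all these genes lay at or below Shox2, 22.8% at or below Hcn4 and 17.0% at or below Tbx3. The other 2 had intervals that include 1, with 2856 reads in KO hearts and 2884 in WT hearts for Tbx18 and 238 in KO hearts and 210 in WT hearts for Isl1. The part of these cells in the Cacna1d values was not tested. In RNA from a bulk tissue, fewer cells of a type and less RNA per cell cannot be told apart.

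The T-type class was led by Cacna1h, which encodes Cav3.2. It had 8646 reads (27.0 RPKM) in the KO library and 6901 reads (21.2 RPKM) in the WT library, 1.28-fold higher in KO hearts (1.24 to 1.32). Cacna1g, which encodes Cav3.1, the T-type pore best known from the adult sinus node, had 1718 reads (5.27 RPKM) in KO hearts and 1715 reads (5.16 RPKM) in WT hearts, a ratio of 1.02 with an interval that includes 1 (0.954 to 1.09). Only the first of these intervals lies off 1. Cacna1h exceeded Cacna1g 5.13-fold (4.87 to 5.40) per length in KO hearts and 4.10-fold (3.89 to 4.32) in WT hearts, and made up 83.7% of the T-type RPKM in KO hearts and 80.4% in WT hearts. The relative ratio between the libraries was 1.251 (1.16 to 1.35).

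Summed by class, T-type transcripts were more abundant than L-type ones per listed length. Cacna1h exceeded Cacna1c 1.37-fold (1.32 to 1.41) in KO hearts and 1.16-fold (1.12 to 1.20) in WT hearts. Summed over each class, T-type pores had 32.3 RPKM against 22.8 RPKM for L-type pores in KO hearts, and 26.3 RPKM against 22.3 RPKM in WT hearts. This comparison rests on the listed length of Cacna1c, 7577 bases, which is 57.6% of its longest transcript in GENCODE M21. With that longer transcript as its length the level of Cacna1c would be lower still. With reads not scaled to length, Cacna1h again had more than Cacna1c in both libraries.

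Beta subunits differed most in make-up between the libraries. Cacnb2, the beta subunit best known from heart muscle, had 3200 reads (20.9 RPKM) in the KO library and 2444 reads (15.6 RPKM) in the WT library, 1.33-fold higher in KO hearts (1.27 to 1.41). Cacnb3, a beta subunit known from neurons and smooth muscle, had 850 reads (7.75 RPKM) in KO hearts and 1376 reads (12.3 RPKM) in WT hearts, 1.59-fold lower in KO hearts (1.46 to 1.73). Cacnb1, the beta subunit of the skeletal muscle channel, had 447 reads (3.38 RPKM) in KO hearts and 524 reads (3.90 RPKM) in WT hearts, a ratio of 0.869 (0.764 to 0.988). Cacnb2 and Cacnb3 lay on opposite sides of 1 with intervals far from each other.

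Per listed length, the sum of the 3 beta subunits was nearly equal, at 32.0 RPKM in KO hearts and 31.9 RPKM in WT hearts, while its parts were not. This near equality rests on the listed lengths. Reads not scaled to length summed to 4497 in KO hearts and 4344 in WT hearts, a ratio of 1.05 (1.01 to 1.10). Cacnb2 made up 65.2% of the beta RPKM in KO hearts and 49.1% in WT hearts. Cacnb3 made up 24.2% in KO hearts and 38.7% in WT hearts, and Cacnb1 10.6% in KO hearts and 12.2% in WT hearts. Per length, Cacnb2 exceeded Cacnb3 2.69-fold (2.49 to 2.90) in KO hearts and 1.27-fold (1.19 to 1.36) in WT hearts. The relative ratio was 2.12 (1.91 to 2.35), the highest among the leading pairs of the 4 classes, and it needs neither a gene length nor a scaling of the libraries. Which of the 2 leads in WT hearts does depend on length: with the longest annotated transcripts in place of the listed lengths, Cacnb2 over Cacnb3 was 2.05 in KO hearts and 0.965 in WT hearts.

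**Figure D2:**
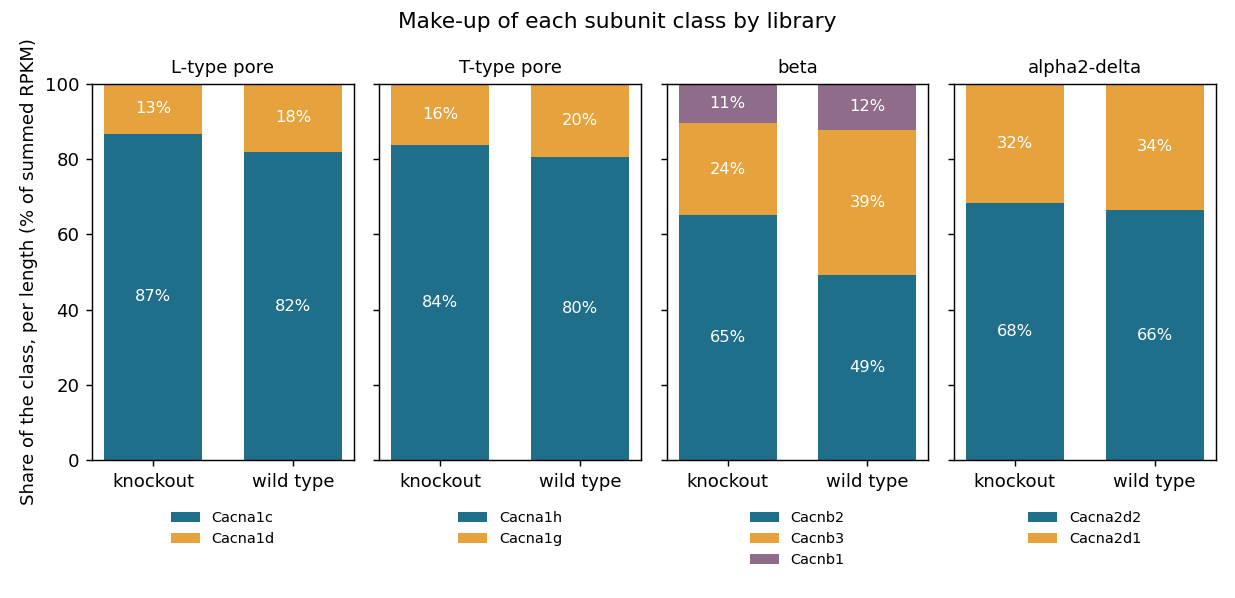
Share of each subunit in the summed RPKM of its class (vertical axis, percent) in the Srsf10 knockout library (left bar of each panel) and the wild-type library (right bar), with 1 panel per class and 1 library per bar. Cacna1c, Cacna1h and Cacna2d2 lead their classes in both libraries by a wide margin, whereas the Cacnb2 share is 65.2% in KO hearts and 49.1% in WT hearts.

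Cacnb3 is also used in smooth muscle, and the 6 markers of that tissue (Acta2, Tagln, Myh11, Cnn1, Myocd and Des) were found in both libraries and summed to 1548 RPKM in KO hearts and 1293 RPKM in WT hearts. Some of these 6 genes are also active in the embryonic heart muscle itself. Most of the sum of the 6 was Acta2, at 1024 RPKM in KO hearts and 818 RPKM in WT hearts. Myh11 had only 1.35 RPKM in KO hearts and 1.47 RPKM in WT hearts. Intervals lay above 1 for Acta2, Tagln and Cnn1, below 1 for Des, and included 1 for Myh11 and Myocd. The median log2 ratio of the 6 was 0.003. The 10 neuronal and neural crest markers (Elavl3, Elavl4, Tubb3, Stmn2, Snap25, Th, Dbh, Prph, Gap43 and Sox10) summed to 21.9 RPKM in KO hearts and 22.7 RPKM in WT hearts, with none at 0. Sox10, a neural crest and glial factor, had 2 reads in KO hearts and 50 in WT hearts, and Prph, a peripheral neuron filament, 3 reads in KO hearts and 30 in WT hearts. Other members ran the other way: Elavl4, a neuronal RNA-binding protein, had 255 reads in KO hearts and 183 in WT hearts, and Snap25, a protein of synaptic release, had 68 in KO hearts and 43 in WT hearts, both with intervals above 1. These 4 were picked after their values were seen. The 5 fibroblast and mesenchyme markers (Col1a1, Col3a1, Postn, Dcn and Pdgfra) all had intervals below 1 and summed to 454 RPKM in KO hearts and 642 RPKM in WT hearts. Their ratios were 0.645 (0.619 to 0.672) for Dcn, 0.662 (0.653 to 0.671) for Col1a1 and 0.666 (0.657 to 0.676) for Col3a1. Postn, at 0.884 (0.866 to 0.903), and Pdgfra, at 0.949 (0.913 to 0.987), lay nearer to 1. The 5 macrophage markers (Cd68, Csf1r, Fcgr3, Lyz2 and Adgre1) all had intervals above 1 and summed to 51.0 RPKM in KO hearts and 35.4 RPKM in WT hearts. An interval off 1 was common at this depth. Of all genes that reached an RPKM of 1 in either library, 28% had an interval above 1 and 31.6% one below 1. The 6 endothelial and endocardial markers (Pecam1, Cdh5, Kdr, Tek, Npr3 and Nfatc1) summed to 224.1 RPKM in KO hearts and 226.1 RPKM in WT hearts. The part of any of these cells in the Cacnb3 difference, or in those of the other subunits, was not tested.

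Both alpha2-delta genes were higher in the KO library. Cacna2d2, which encodes alpha2-delta-2, had 5530 reads (24.5 RPKM) in KO hearts and 4734 reads (20.6 RPKM) in WT hearts, a ratio of 1.19 (1.14 to 1.24). Cacna2d1, which encodes alpha2-delta-1, the form best known from skeletal and adult heart muscle, had 3295 reads (11.3 RPKM) in KO hearts and 3079 reads (10.4 RPKM) in WT hearts, a ratio of 1.09 (1.04 to 1.15). Cacna2d2 was the dominant form in both, at 2.16-fold (2.07 to 2.25) the level of Cacna2d1 per length in KO hearts and 1.98-fold (1.89 to 2.07) in WT hearts. It led as well with reads not scaled to length, 1.68-fold in KO hearts and 1.54-fold in WT hearts. The relative ratio between the libraries, 1.09 (1.02 to 1.16), was the smallest of the 4 leading pairs.

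Apart from Cacnb3, the differences between the libraries were under 1.5-fold. Of the 9 genes, 0 were at least 1.5-fold higher and 1, Cacnb3, was at least 1.5-fold lower in KO hearts on the scale of RPKM + 1, where Cacnb3 had a log2 ratio of -0.61. Among the 12329 genes that reached an RPKM of 1 in one library or both, 1.52% were at least 1.5-fold higher and 1.44% at least 1.5-fold lower. Genes with a log2 ratio at or below that of Cacnb3 made up 1.26% of them. Genes at or above Cacnb2 (log2 ratio 0.39) made up 4.33%, and genes at or above Cacna1h (0.34) 6.23%. For Cacna1d (-0.32), 6.90% of genes lay at or below it. The counting interval lay above 1 for 5 of the 9 genes and below 1 for 3, but at this depth it also lay above 1 for 28% and below 1 for 31.6% of all genes tested, so an interval off 1 is common here. The median log2 ratio was 0.11 over the 9 genes and -0.01 over all genes tested.

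**Figure D3:**
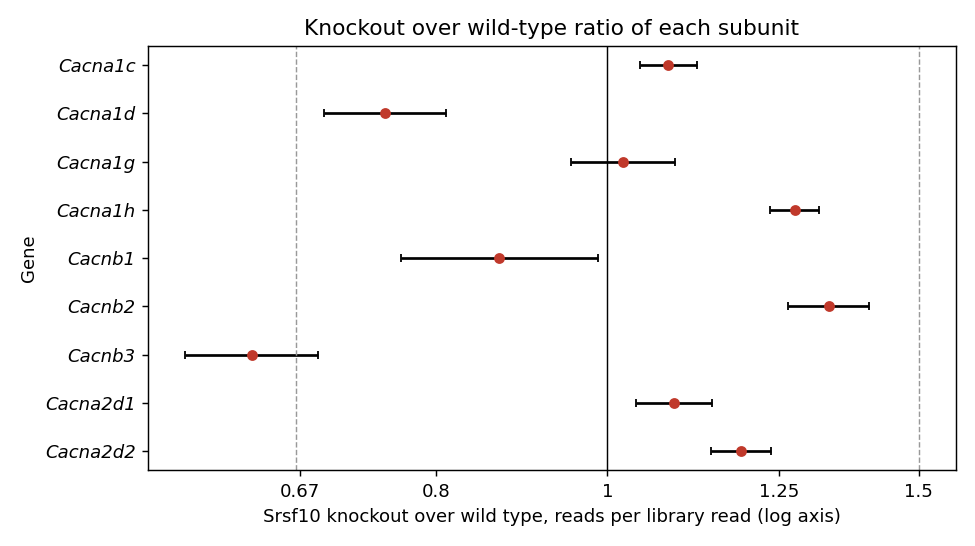
Ratio of reads per library read, Srsf10 knockout over wild type, for each subunit (horizontal log axis), as points with exact 95% intervals for counting error, with 1 library per genotype. The solid line marks equal levels and the dashed lines 1.5-fold, and Cacnb3 alone lies past a dashed line, at 0.629, while its interval reaches 0.686.

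**Figure D4:**
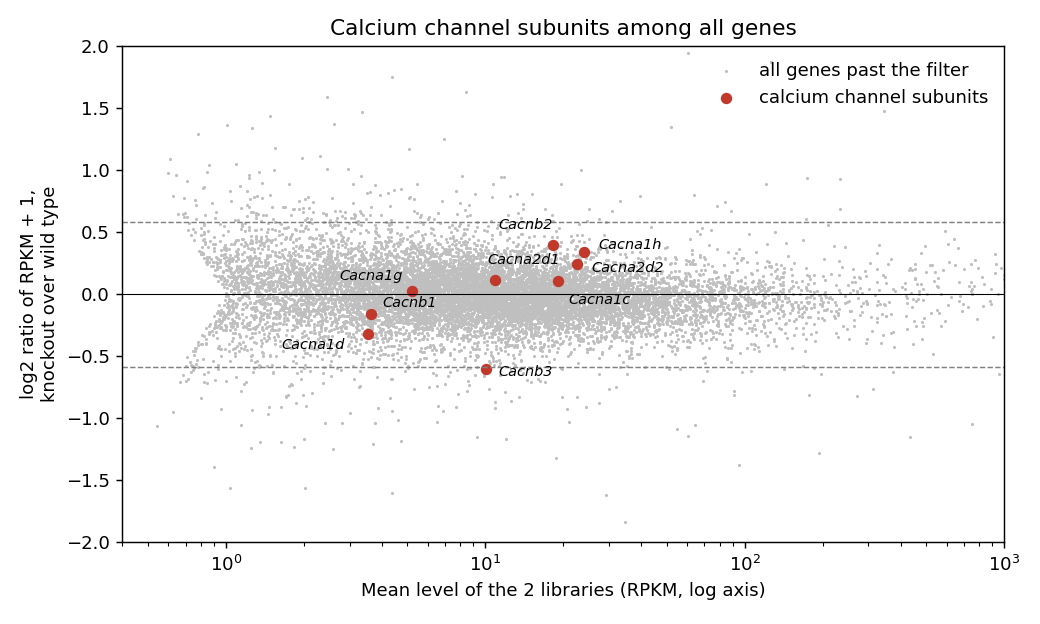
log2 ratio of RPKM + 1, Srsf10 knockout over wild type (vertical axis), against the mean RPKM of both libraries (horizontal log axis) for the genes that reached an RPKM of 1 in either library (grey) and the 9 subunits (red), with dashed lines at 1.5-fold. The subunits lie within the grey cloud and Cacnb3, at -0.61, sits at its lower edge, while 46 genes fall outside the axes.

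Of the 17 other genes of the channel family, 4 reached an RPKM of 1 in at least 1 library. On RPKM + 1, which draws the ratios of low-level genes toward 1, 0 of these were at least 1.5-fold apart in either direction. Of all genes past the same filter, 1.52% were at least 1.5-fold higher and 1.44% at least 1.5-fold lower. The pore gene Cacna1a, which encodes the P/Q-type pore of nerve endings, had 603 reads (1.96 RPKM) in KO hearts and 469 reads (1.49 RPKM) in WT hearts, a ratio of 1.31 (1.16 to 1.48). The gamma subunit genes Cacng6 and Cacng7 were the most abundant. Cacng6, a gamma subunit of striated muscle, had 161 reads (5.29 RPKM) in KO hearts and 146 reads (4.71 RPKM) in WT hearts, and Cacng7 had 299 reads (3.48 RPKM) in KO hearts and 330 reads (3.77 RPKM) in WT hearts, both with intervals that include 1. Cacng4 had 106 reads (0.779 RPKM) in KO hearts and 159 reads (1.15 RPKM) in WT hearts, a ratio of 0.679 (0.526 to 0.874). It reached an RPKM of 1 in WT hearts only. No read was listed for Cacna2d4 in either library. Cacna1e, the R-type pore, was below that level and is named after its values were seen, with 200 reads (0.405 RPKM) in KO hearts and 76 reads (0.151 RPKM) in WT hearts, a ratio of 2.68 (2.05 to 3.54).

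Cacna1s, the L-type pore of skeletal muscle, was nearly absent beside Cacna1c, with 98 reads (0.403 RPKM) in KO hearts and 54 reads (0.218 RPKM) in WT hearts. The summed skeletal muscle markers were also higher in KO hearts. Of 13 markers 12 were listed, and their sum was 119 RPKM in KO hearts and 40.4 RPKM in WT hearts. Most of that sum was Tnni2, fast skeletal troponin I, with 3368 reads in KO hearts and 865 in WT hearts, whereas the muscle-forming factors all stayed under an RPKM of 1. Myod1 had 2 reads in KO hearts and 18 in WT hearts, Myog had 18 in KO hearts and 41 in WT hearts, and Myf6 had 4 in KO hearts and 0 in WT hearts. Myf5 was at 0 in both libraries. The remaining markers were split. Tnnt3, Mylpf, Actn3 and Myh8 had intervals above 1, as did Tnni2. Myh3, with 8 reads in KO hearts and 87 in WT hearts, and Ryr1, with 27 in KO hearts and 52 in WT hearts, had intervals below 1. Chrna1 and Chrng had intervals that include 1. Of the subunits that the skeletal channel also uses, Cacnb1 had a ratio of 0.869 and Cacna2d1 one of 1.09, as given above. The part of skeletal muscle cells in the Cacna1s reads was not tested.

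Genes that act on these channels showed ratios on both sides of 1. The list holds 24 genes for calmodulins, kinases and their anchors, beta receptors, the RGK proteins, Stac adaptors and proteins of the junction between the cell membrane and the calcium store. Of the 22 that reached an RPKM of 1 in one library, 8 had a ratio above 1 and 14 below, with intervals above 1 for 6 and below 1 for 10, beside 28% above and 31.6% below over all genes tested. On RPKM + 1, 0 were at least 1.5-fold higher and 1 at least 1.5-fold lower, beside 1.52% and 1.44% of all genes, and the median log2 ratio was -0.05 against -0.01 over all genes. That 1 gene was Stac2, an adaptor that binds L-type pores, with 73 reads (0.615 RPKM) in KO hearts and 190 reads (1.57 RPKM) in WT hearts, 2.56-fold lower (1.94 to 3.39). Stac2 passed the filter only through the WT library, where it was higher, so its place among the 22 was not independent of its direction. Stac3 ran the other way, with 104 reads in KO hearts and 74 in WT hearts, 1.43-fold higher (1.05 to 1.96). Akap5 was also higher, at 1.24-fold (1.12 to 1.37). Stac3 and Akap5 are named after their values were seen. Calm2, a calmodulin gene and the most abundant of the list, had 304 RPKM in KO hearts and 296 RPKM in WT hearts.

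The RGK proteins, small GTPases that bind beta subunits and hold L-type current down, are described after their values were seen. Rrad (Rad), by far the most abundant of them, had 5731 reads (93.6 RPKM) in KO hearts and 7726 reads (123.8 RPKM) in WT hearts, 1.32-fold lower (1.28 to 1.37). Rem1 was 1.31-fold lower (1.12 to 1.54) and Rem2 1.68-fold lower (1.20 to 2.36) at 58 reads in KO hearts and 99 in WT hearts. Rem2 reached an RPKM of 1 in WT hearts only, and its log2 ratio of RPKM + 1 was -0.38. Gem had a ratio of 1.04 and an interval that includes 1 (0.907 to 1.20). By log2 ratio of RPKM + 1, 4.32% of all genes tested lay at or below Rrad, 6.98% at or below Rem1 and 4.92% at or below Rem2. Per length, Rrad was above every one of the 9 channel genes in both libraries. Jph2, which holds the cell membrane and the calcium store together at the sites where L-type channels sit, was also picked after its values were seen. It had 44.7 RPKM in KO hearts and 62.8 RPKM in WT hearts, 1.40-fold lower (1.36 to 1.45), with 2.49% of all genes tested at or below it.

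**Figure D5:**
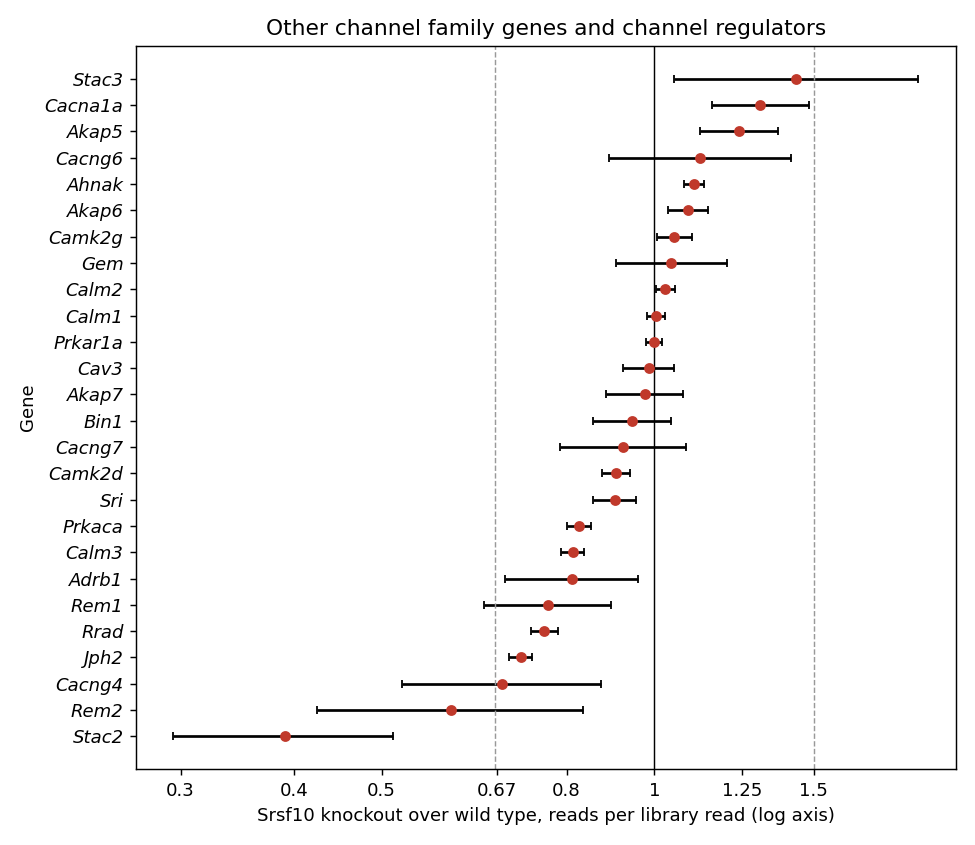
Ratio of reads per library read, Srsf10 knockout over wild type (horizontal log axis), with exact 95% intervals for counting error, for the 4 other channel family genes and the 22 channel regulators that reached an RPKM of 1 in either library, ordered by ratio. Stac2, Rem2, Cacng4, Jph2 and Rrad are among the genes left of the solid line of equal levels with intervals off it. Stac3, Cacna1a and Akap5 are among those right of that line with intervals off it, and dashed lines mark 1.5-fold. Stac2 and Rem2 lie past a dashed line on this scale, whereas on RPKM + 1 only Stac2 was at least 1.5-fold lower.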

How the data were processed

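Total RNA of embryonic hearts was made into standard Illumina libraries, per the labels' protocols. The submitters' processing notes name the aligner Bowtie 0.12.2 and the genome build mm9. The gene annotation, any filter on reads and whether counting used strand were not given in the sources used here. Deposited counts are integers, the unique reads of each Ensembl gene per the file headers, and sum to the total each header states. The authors also deposited RPKM, which recomputation from count, listed length and total gave back to a relative deviation of 2.1e-14. Deposited length and coverage columns (percent of the length covered) were used as listed, and a gene with no row was taken as 0 reads.

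Symbols were matched by Ensembl identifier for 17196 of 17646 genes. With 1 library per genotype there is no replicate spread, so no test was run. Ratios are of reads per library read with exact conditional binomial (Clopper-Pearson) 95% intervals, which were tested on simulated Poisson counts. Such counts hold no spread beyond counting error, so this checked the calculation only. Relative ratios are conditional odds ratios with exact intervals, which were not tested in that way. Members with a log2 ratio of RPKM + 1 past 1.5-fold were counted. SciPy 1.17.1 and pandas 2.3.3 were used. Transcript lengths, overlaps and sequences came from GENCODE M21 (GRCm38), and no coordinates are given. Alternatives were 3 library scalings, pseudocounts of 0.1 and 5, other filters and folds, and other gene lengths.

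The 9 genes, the lists and the naming rule were chosen with earlier results of these data known, and some marker genes are not reported here. The rule named the 9 genes, the other family genes with an RPKM of at least 1, the highest 2 and Cacna1s, and the regulators at least 1.5-fold apart with the most abundant one.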

Additional observations from a re-analysis of the deposited data

How the results depend on the processing

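Scaling by the median ratio, by the upper quartile or to reads outside mitochondrial genes multiplied knockout values by 1.006, 1.015 and 1.013, and under these 3 scalings each ratio of the 9 genes stayed within its interval and kept its direction. The Cacnb1 interval came to include 1 under the upper quartile (0.776 to 1.003) and outside mitochondrial genes (0.774 to 1.0004), so that 2 of the 9 genes rather than 3 had an interval below 1. The count of 1 gene lower became 0 with a pseudocount of 5 and 0 at 2-fold, and at the lowest fold tried 2 genes were higher and 2 lower.

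Gene length mattered more, by construction, for ratios between genes. Cacna1c over Cacna1d was 5.40 in KO hearts and 3.74 in WT hearts with unscaled reads, 3.96 in KO hearts and 2.74 in WT hearts with the longest annotated transcript, and 3.22 in KO hearts and 2.22 in WT hearts with summed exons, a length added after the data were seen. Cacnb2 over Cacnb3 was 3.76 in KO hearts and 1.78 in WT hearts with unscaled reads, 2.05 in KO hearts and 0.965 in WT hearts with the longest transcript, and 1.14 in KO hearts and 0.538 in WT hearts with summed exons, so in WT hearts the direction turned under both annotated lengths. Cacna2d2 over Cacna2d1 was 1.68 in KO hearts and 1.54 in WT hearts with unscaled reads, and 2.62 in KO hearts and 2.40 in WT hearts with summed exons. In the order of the 9 genes, Cacna1c took place 2 with unscaled reads and place 5 with the longest transcript in both libraries, and with summed exons place 3 in KO hearts and place 4 in WT hearts, whereas Cacna1h was in place 1 under all 4 lengths. Cacnb2 took place 5 with unscaled reads in both libraries, and with summed exons place 5 in KO hearts and place 6 in WT hearts. Cacnb3 took place 3 in WT hearts under both annotated lengths. No paired analysis was possible because each group holds 1 library, and for the same reason no library could be left out. Depth limits the family genes under 100 reads, while the 9 genes had at least 447 reads in each library.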

Other observations

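The deposited coverage column gives the percent of each listed length that reads cover, without saying which exons. It ran from 89.15% (Cacna1d) to 97.61% (Cacnb1) over the 9 genes in the KO library and from 91.42% (Cacna1d) to 99.83% (Cacna1h) in the WT library. The widest gaps of the 9 were those of Cacna1h and Cacna2d2, and they ran in opposite directions. Cacna1h had 96.72% of its length covered in KO hearts at 8646 reads and 99.83% in WT hearts at 6901 reads, so the library with more reads had less of the length covered. Cacna2d2 had 95.58% covered in KO hearts at 5530 reads and 92.39% in WT hearts at 4734 reads. Cacna1c was covered alike, at 93.48% in KO hearts and 93.36% in WT hearts. These values were picked after they were seen, have no replicate, and do not separate splice forms.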
